A study of Rattus norvegicus with 58 samples.

Results

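Synovial tissue of arthritic rats was compared in rats on RTD-1 and in rats on saline, both treated for 3 days, gene by gene and library by library. The comparison took 16 of the 58 libraries of the series, chosen by their labelled treatment and day: 8 from rats given 5 mg/kg RTD-1 in saline under the skin for 3 days, and 8 from rats given saline for the same time. All 16 came from female DA/OlaHsd rats, 6 to 8 weeks old when they received 250 µl of pristane. Treatment began, at the time called T=0, the day after both hind limbs had scored 3 or more. A further pair of groups were used to say which genes arthritis itself changes, 4 libraries of untreated rats with pristane-induced arthritis (PIA) and 4 of naive rats. Neither shares a library with the 3-day comparison. The same RTD-1 against saline comparison after 1 day (n = 4 each) and 5 days (n = 8 each) is given for reference where it bears on the 3-day values.

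RTD-1 is rhesus theta-defensin 1, a small macrocyclic peptide of the innate immune system of rhesus monkeys. The synovium is the soft lining of the joint, made of lining macrophages and fibroblasts over connective tissue that holds vessels and fat. In pristane arthritis, which depends on T cells, leukocytes enter it and the resident fibroblasts multiply and release cytokines and matrix-degrading enzymes. The samples are bulk tissue, so fewer cells of a type and less RNA per cell cannot be told apart. None of the 16879 rat gene identifiers in the table matched the reference table used here (0 matched), so genes are given by identifier, without a name or a role, and marker genes could not be used to check the tissue label.

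The 3-day libraries differed in depth within and between arms. In RTD-1 rats, reads in genes ran from 464693 to 3753844, and in saline rats from 1581196 to 5727282. The lowest 2 of all 16 were RTD-1 replicate 6, with 464693 reads, and RTD-1 replicate 8, with 935255, and the highest was saline replicate 4. Mean log2 depth was 0.51 lower in the RTD-1 arm, which the two-sided exact permutation test did not separate from the spread among libraries (p = 0.205, n = 8 each). It was 0.32 lower without saline replicate 4 and 0.09 lower without RTD-1 replicates 6 and 8. Reads in genes made up 27.2% of the authors' library factor in RTD-1 replicate 6, and 35.8% to 49.2% in the other RTD-1 libraries, against 35.1% to 46.5% in saline libraries. In replicates 1 to 4 that share averaged 41.7% ± 5.64 in RTD-1 and 39.5% ± 5.21 in saline libraries, and in replicates 5 to 8 it averaged 37.2% ± 7.57 in RTD-1 and 40.9% ± 4.87 in saline libraries (SD, n = 4 each). Values were scaled by the whole factor and not by the reads in genes.

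**Figure D1:**
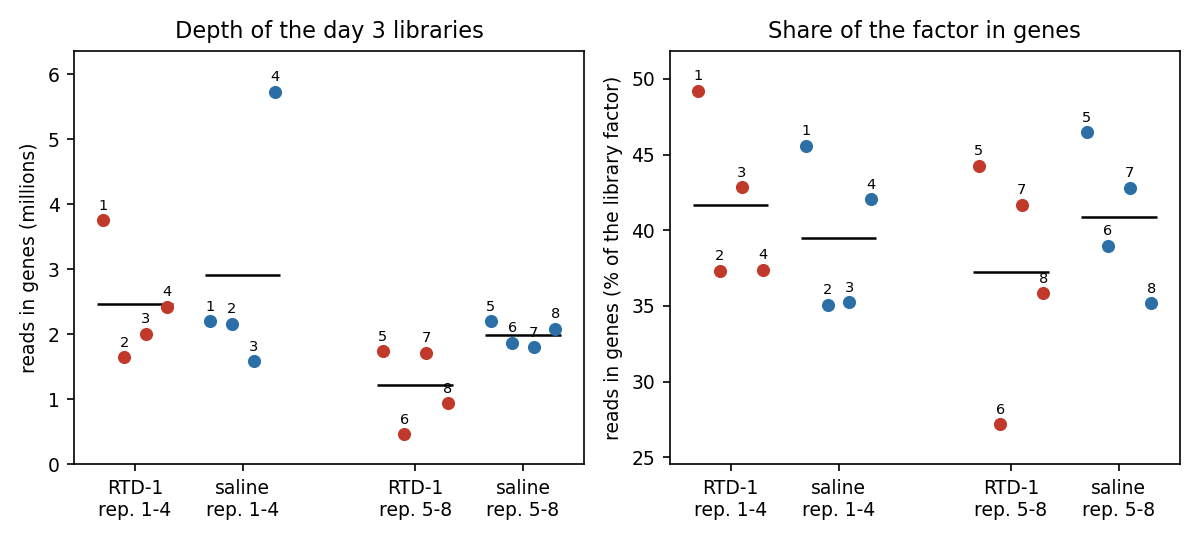
Reads in genes (left, in units of 1e6) and reads in genes as a percentage of the authors' library factor (right), for each 3-day library. Red points are RTD-1 and blue points saline, numbered by replicate, and black lines are means of 4 libraries. Saline replicate 4 stands highest in depth with 5727282 reads, and RTD-1 replicate 6 lowest in both panels, with 464693 reads and 27.2%.

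Over all 8 replicates a side, 1 of 13062 genes tested was called, which is 0.00766%, and it was lower after RTD-1 (limma, Benjamini-Hochberg adjusted p under 0.05). At an unadjusted p under 0.05 there were 1010 genes (7.73%), of which 331 were higher and 679 lower after RTD-1. This balance turned with 1 library: without RTD-1 replicate 6 there were 754 higher and 359 lower, and with array weights, which give each library a weight by its fit, 709 higher and 412 lower. The median difference over all genes was -0.03 on the log2 scale. For 9853 genes (75.4%) the 95% interval of the difference lay within a 2-fold change either way. That share was 8.60% among the 1581 genes with a mean log2 level under 3 and 91.4% among the 4863 genes with a mean of 5 to 7, so the interval was narrow for most well-covered genes and for few sparse ones. No gene had every RTD-1 library above every saline library (0%), and 2 had every RTD-1 library below every saline library (0.0153%). With TMM factors there were 2 above and 9 below, and without saline replicate 4 as well, 3 above and 11 below. Neither of the 2 under the deposited scaling was called. These 2, named after their values were seen, were ENSRNOG00000011826, with 0 to 3.68 normalized reads in RTD-1 and 3.88 to 14.1 in saline libraries (adjusted p = 0.461), and ENSRNOG00000019763, with 0 reads in all 8 RTD-1 libraries and 0.971 to 4.67 normalized reads in saline libraries (adjusted p = 0.378). For ENSRNOG00000019763 the value of 0.971 is 1 read, in saline replicate 8. No 3-day library of it reached the 10 normalized reads of the filter, so it was tested only through other groups.

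The called gene was ENSRNOG00000055829, a sparsely covered gene that untreated arthritis also lowers. Recovered reads were 0, 1, 0, 4, 1, 0, 2 and 0 in RTD-1 replicates 1 to 8, against 4, 17, 2, 12, 5, 10, 6 and 12 in saline replicates 1 to 8. In 4 of the 8 RTD-1 libraries it had no read and no saline library lacked it, but the arms overlapped, since RTD-1 replicates 4 and 7 lay above saline replicate 3 after scaling. It averaged 1.14 ± 1.41 normalized reads in the RTD-1 arm and 8.28 ± 4.52 in the saline arm (SD, n = 8 each), with a log2 difference of -2.23 (SE 0.417, adjusted p = 0.0210, limma). The difference was -1.91 within replicates 1 to 4 and -2.54 within replicates 5 to 8. With a pseudocount of 8 in place of 1 it was -0.80 and no longer called. It stayed lower after RTD-1 under every alternative tried, with an adjusted p of 0.00542 to 0.0467 in 18 of them and 0.0542 to 0.694 in the other 13, among them each of 5 omissions of a single library (RTD-1 replicates 6 and 8, saline replicates 2, 6 and 8). The 18 count the omission of saline replicate 4 under 2 names. Untreated PIA libraries averaged 4.17 ± 5.62 and naive libraries 99.2 ± 23.9 normalized reads of this gene (SD, n = 4 each). The 3-day saline mean thus lay above the untreated PIA mean and the RTD-1 mean below it, and all were far below naive. After 1 day the RTD-1 minus saline difference of this gene was 1.68, opposite in sign, and after 5 days it was -0.17. Neither was called (adjusted p = 0.912 and 0.998, limma).

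Replicates 1 to 4 and replicates 5 to 8 were then compared apart. In replicates 1 to 4, 0 genes were called (lowest adjusted p = 0.128), and at an unadjusted p under 0.05 there were 1168 higher (8.94%) and 260 lower (1.99%) after RTD-1. In replicates 5 to 8, 1 gene was called, lower after RTD-1 (0.00766%), and at an unadjusted p under 0.05 there were 43 higher (0.329%) and 1385 lower (10.6%). With all libraries kept, the counts leaned in opposite directions, and so did the level of genes as a whole. The median over all genes was 0.16 in replicates 1 to 4, where 69% of genes were higher after RTD-1 and 31% lower, and -0.21 in replicates 5 to 8, where 23.7% were higher and 76.1% lower. Without RTD-1 replicate 1 the lean in replicates 1 to 4 weakened, to 664 higher and 395 lower, with a median of 0.08 and 59.8% of genes higher. It kept its direction with each library of that set left out, with a median of up to 0.24 without saline replicate 1. The lean in replicates 5 to 8 was not there without the 2 shallow libraries, RTD-1 replicates 6 and 8, when 276 genes were higher and 149 lower at an unadjusted p under 0.05, the median was 0.06 and 58.2% of genes were higher. Without RTD-1 replicate 6 alone there were 174 higher and 374 lower, with a median of -0.03. Under trimmed mean of M-values (TMM) factors, which align the bulk of genes between libraries, the medians with all libraries kept became -0.02 in replicates 1 to 4 and -0.06 in replicates 5 to 8. The unadjusted counts became 465 higher and 829 lower in replicates 1 to 4, and 342 higher and 864 lower in replicates 5 to 8. Groups that did not overlap showed the same displacement: 451 genes (3.45%) had all RTD-1 above all saline libraries in replicates 1 to 4 and 35 (0.268%) in replicates 5 to 8, whereas 60 (0.459%) and 396 (3.03%) had all RTD-1 below. With TMM factors the genes above were 148 and 211, and the genes below 252 and 328.

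The difference of the effects, replicates 5 to 8 minus replicates 1 to 4, was called for 0 of 13062 genes (lowest adjusted p = 0.0804, limma). At an unadjusted p under 0.05 there were 1670 genes (12.8%), 23 with a higher difference (0.176%) and 1647 with a lower one (12.6%), and with TMM factors 329 higher and 508 lower, with 0 called. Across genes, the effects in the 2 sets had a Pearson correlation of 0.22 and a Spearman correlation of 0.20 over 13062 genes, which share the same libraries within a set and are not independent. With TMM factors they were 0.22 and 0.20, and without saline replicate 4 they were 0.24 and 0.20. The median SD of a gene's log2 level was 0.38 in RTD-1 and 0.43 in saline libraries of replicates 1 to 4, and 0.50 in RTD-1 and 0.32 in saline libraries of replicates 5 to 8, the set that holds the 2 shallow RTD-1 libraries.

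**Figure D2:**
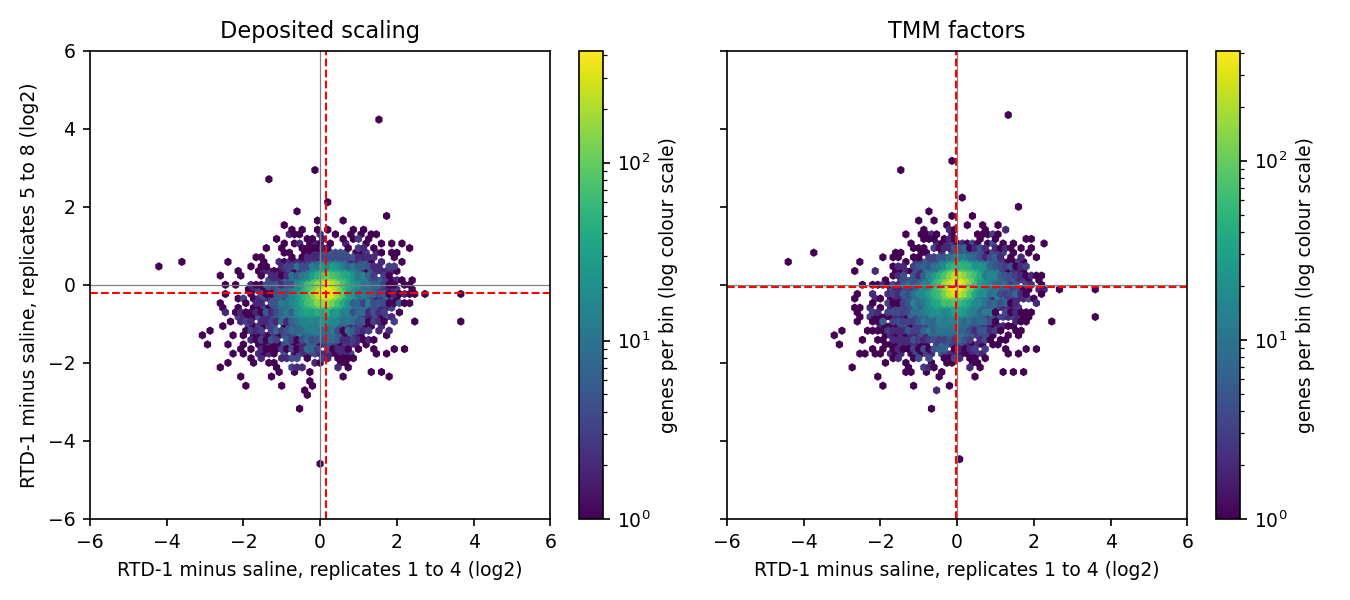
Log2 difference RTD-1 minus saline in replicates 1 to 4 (horizontal) and in replicates 5 to 8 (vertical) for 13062 genes, under the deposited scaling (left) and TMM factors (right), with colour giving genes per bin on a log scale. Red dashed lines are medians, which lie at 0.16 and -0.21 under the deposited scaling and at -0.02 and -0.06 under TMM factors.

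Taking the mean of the effects in the 2 sets, so that a shift between sets does not enter the spread, 2 genes were called, both lower after RTD-1 (0.0153%), and 1111 genes (8.51%) had an unadjusted p under 0.05, of which 378 were higher (2.89%) and 733 lower (5.61%). That balance turned as well, to 746 higher and 385 lower without RTD-1 replicate 6, 766 and 162 without RTD-1 replicates 6 and 8, 755 and 370 with array weights, and 571 and 267 with voom. The 2 called genes were ENSRNOG00000055829 (adjusted p = 0.0175, limma) and ENSRNOG00000021553, named after its values were seen. ENSRNOG00000021553 had 10, 2, 10 and 10 reads in RTD-1 replicates 1 to 4 and 0, 0, 1 and 0 in RTD-1 replicates 5 to 8, against 12, 20, 7, 12, 11, 10, 7 and 8 in saline replicates 1 to 8. In replicates 5 to 8 every RTD-1 library was below every saline library, and in replicates 1 to 4 the arms overlapped. It was the gene called within replicates 5 to 8, with a log2 difference of -3.20 (SE 0.474, adjusted p = 0.000133), and its mean effect was -1.87 (adjusted p = 0.0100, limma). Within replicates 1 to 4 the difference was -0.54, and the difference between the sets was not called (-2.66, adjusted p = 0.211). Of the 4 RTD-1 libraries near 0, 2 were the shallow replicates 6 and 8, in which 1 read was worth 3.36 and 2.20 normalized reads. Without them the difference in replicates 5 to 8 was -2.89 and was no longer called.

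Genes with more reads and the same direction in both sets showed smaller differences, none of them called under the deposited scaling. For the genes chosen by this rule, SE and adjusted p are those of the mean of both sets' effects, unless said otherwise. The 2 with the lowest p that were higher after RTD-1 were ENSRNOG00000020608 and ENSRNOG00000020482. ENSRNOG00000020608 had 37.0, 73.1 and 118 normalized reads as its lowest, median and highest RTD-1 library, against 26.1, 43.5 and 64.1 in saline libraries. The upper part of the RTD-1 range was empty of saline libraries, while the lower part overlapped them. Its means were 74.6 ± 25 and 43.2 ± 13.7 (RTD-1 and saline, SD, n = 8 each), a log2 difference of 0.76 (SE 0.185, adjusted p = 0.195, limma). With TMM factors its adjusted p was 0.0429 in the mean of both sets' effects and 0.0726 over all replicates (limma). ENSRNOG00000020482 had 173, 212 and 292 normalized reads as its lowest, median and highest RTD-1 library, against 96.1, 138 and 250 in saline libraries, with means of 221.0 ± 47.1 and 152.1 ± 49.1 and a log2 difference of 0.57 (SE 0.143, adjusted p = 0.213, and 0.101 with TMM factors, limma). Untreated PIA libraries averaged 82.2 ± 13.4 and naive libraries 39.0 ± 13.6 normalized reads of the first gene, and 243.7 ± 23.0 and 67.4 ± 10.3 of the second (SD, n = 4 each). For both genes the RTD-1 arm stood nearer to untreated arthritis than the saline arm did.

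The 2 with the lowest p that were lower after RTD-1 were ENSRNOG00000012424 and ENSRNOG00000015850. ENSRNOG00000012424 had 13.3, 29.8 and 71.7 normalized reads as its lowest, median and highest RTD-1 library, against 37.9, 64.8 and 99.8 in saline libraries. The highest RTD-1 value, replicate 5, stood apart from the other 7, which reached 40.0. Its means were 33.2 ± 18.2 in the RTD-1 arm and 65.5 ± 23.7 in the saline arm (SD, n = 8 each), with a log2 difference of -1.04 (SE 0.241, adjusted p = 0.171, limma). With TMM factors its adjusted p was 0.0214 in the mean of both sets' effects and 0.0901 over all replicates (limma). ENSRNOG00000015850 had 9.81, 24.5 and 67.4 normalized reads in RTD-1 libraries and 35.6, 72.7 and 126 in saline libraries, again lowest, median and highest. Its means were 30.3 ± 19.8 and 74.2 ± 32.5 (RTD-1 and saline), with a log2 difference of -1.40 (SE 0.341, adjusted p = 0.199, and 0.0912 with TMM factors, limma). Untreated PIA libraries averaged 38.7 ± 18.1 and naive libraries 113.1 ± 31.2 normalized reads of the first gene, and 74.5 ± 24.8 and 316.2 ± 125 of the second. The RTD-1 mean was the nearer to untreated arthritis for ENSRNOG00000012424 and the saline mean for ENSRNOG00000015850. One more gene, ENSRNOG00000033402, named after its values were seen, averaged 7.65 ± 3.02 in the RTD-1 arm and 21.3 ± 8.77 in the saline arm. Over all replicates its log2 difference of -1.36 missed the threshold under the deposited scaling (adjusted p = 0.0516) and passed it under TMM factors (adjusted p = 0.0121). Its arms overlapped only in that RTD-1 replicate 5, at 13.2, lay above saline replicate 3, at 11.5.

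**Figure D3:**
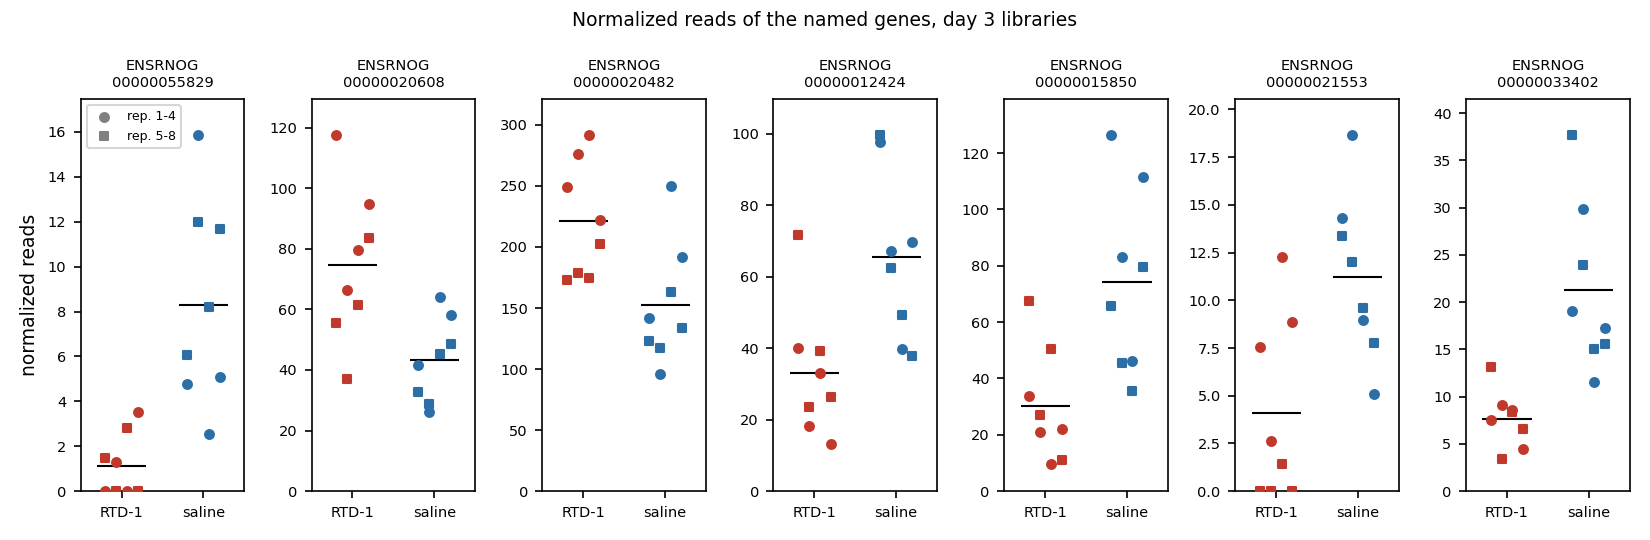
Normalized reads of the 7 named genes in the 3-day libraries, RTD-1 in red on the left of each panel and saline in blue on the right, circles for replicates 1 to 4 and squares for replicates 5 to 8, black lines for means of 8. ENSRNOG00000055829 averages 1.14 in RTD-1 and 8.28 in saline libraries, and ENSRNOG00000020608 averages 74.6 in RTD-1 and 43.2 in saline libraries.

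To describe many genes at once, they were grouped by how untreated PIA differed from naive synovium, a comparison made of other libraries. At an adjusted p under 0.05 and at least a 2-fold change, 3219 genes (24.6%) differed, 2035 higher in PIA (15.6%) and 1184 lower in PIA (9.06%). The 3-day difference ran in order of these classes. The 74 genes lowered at least 16-fold by arthritis had a median RTD-1 minus saline difference of -1.06, and 73 of them were lower after RTD-1. The 535 genes lowered 4 to 16-fold had a median of -0.51 and the 575 lowered 2 to 4-fold a median of -0.29. The 9843 genes outside both lists had a median of -0.03, and the 1315, 639 and 81 genes raised 2 to 4-fold, 4 to 16-fold and at least 16-fold had medians of 0.09, 0.20 and 0.48. Of all 1184 lowered genes, 1021 (86.2%) were lower after RTD-1, against 54.2% of all genes tested, and 248 (20.9%) had an unadjusted p under 0.05 in that direction, against 5.20% of all genes. Of all 2035 raised genes, 1419 (69.7%) were higher after RTD-1, against 45.8% of all genes, and 157 (7.71%) had an unadjusted p under 0.05 in that direction, against 2.53%. Of these 3219 genes 1 was called, ENSRNOG00000055829, among those lowered at least 16-fold. Sparse genes leaned lower over all classes, with a median of -0.33 for the 1581 genes at a mean log2 level under 3. At a mean log2 level of at least 5, 91.0% of the 387 lowered genes were lower after RTD-1, against 49.8% of all 8379 genes. Of the 1437 raised genes at that level, 72.7% were higher after RTD-1, against 50.2% of all genes there. Over all replicates, then, the typical gene of both lists stood further from its naive level after RTD-1 than after saline. These are counts and medians of genes measured in the same 16 libraries, and genes of a list move together, so they carry no test.

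**Figure D4:**
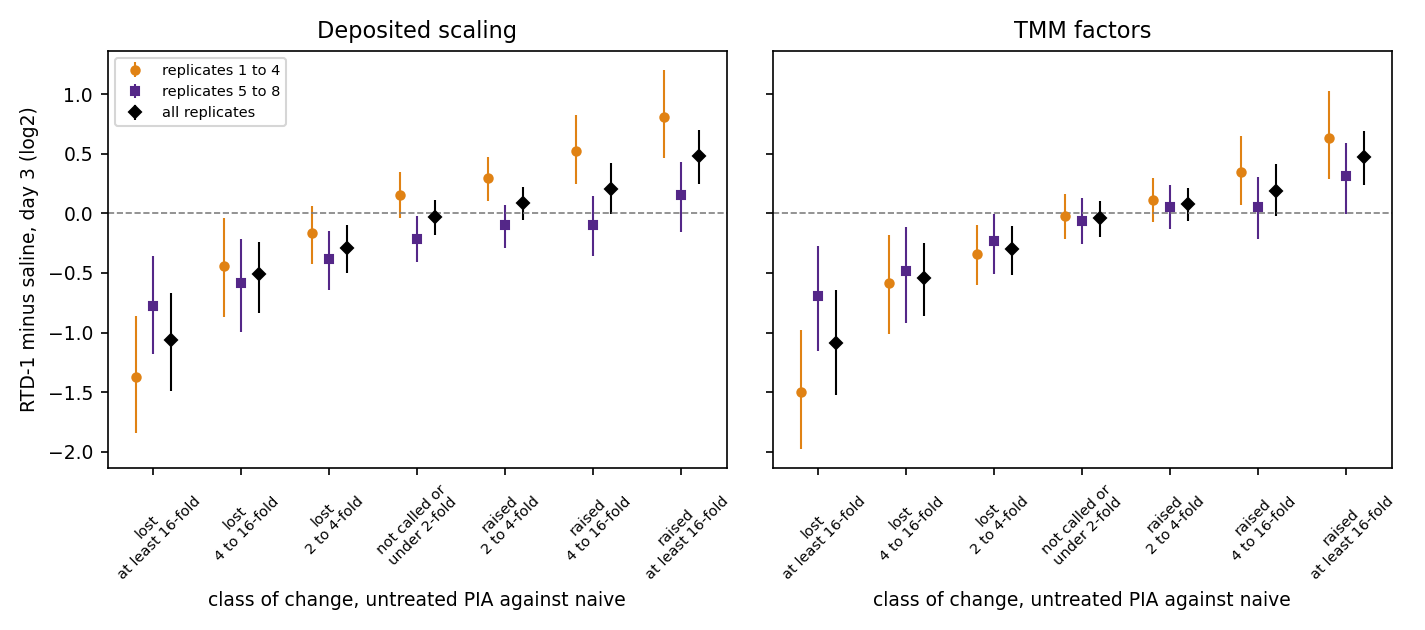
Median RTD-1 minus saline difference at day 3 (log2) for genes classed by their change in untreated PIA against naive, under the deposited scaling (left) and TMM factors (right), with bars spanning the quartiles over genes. The medians for all replicates run upward from -1.06 in genes lowered at least 16-fold to 0.48 in genes raised at least 16-fold under the deposited scaling.

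The order of the classes was present within each set, around the median of that set, while all 8 libraries a side were kept. In replicates 1 to 4 the medians were -1.37, -0.44 and -0.17 in the classes lowered at least 16-fold, 4 to 16-fold and 2 to 4-fold, 0.16 in the other genes, and 0.29, 0.52 and 0.81 in the classes raised 2 to 4-fold, 4 to 16-fold and at least 16-fold. In replicates 5 to 8 they were -0.78, -0.58, -0.38, -0.22, -0.10, -0.10 and 0.16 in the same order. With TMM factors they were -1.50, -0.59, -0.34, -0.02, 0.11, 0.35 and 0.64 in replicates 1 to 4, and -0.69, -0.48, -0.23, -0.06, 0.06, 0.06 and 0.32 in replicates 5 to 8. The sign of the raised classes below 16-fold in replicates 5 to 8 therefore turned with the scaling. Of the 1184 lowered genes, 780 (65.9%) were lower after RTD-1 in both sets and 59 (4.98%) higher in both, against 25.4% and 18.3% of all genes. Of the 2035 raised genes, 693 (34.1%) were higher in both and 221 (10.9%) lower in both, and 1049 (51.5%) were higher in replicates 1 to 4 and lower in replicates 5 to 8, a share that was 50.7% in all genes.

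Library by library, the mean log2 level of the 1184 lowered genes, less its naive mean, was -1.78, -2.24, -2.11, -2.43, -1.51, -2.99, -1.90 and -2.77 in RTD-1 replicates 1 to 8. In saline replicates 1 to 8 it was -1.21, -1.20, -2.50, -2.11, -1.48, -1.58, -2.05 and -1.96. Saline replicates 1 and 2 were the highest of all 16 libraries and RTD-1 replicates 6 and 8 the lowest, and the arms overlapped broadly between. The means were -2.22 ± 0.50 in the RTD-1 arm and -1.76 ± 0.47 in the saline arm (SD, n = 8 each), with a difference of -0.455 that is about as large as the SD of either arm. Untreated PIA libraries lay between -2.63 and -2.01, so the RTD-1 mean was close to that of untreated PIA, at -2.25 ± 0.272 (n = 4), and the saline mean above the whole range of untreated PIA. Both lists and their classes were chosen from these same untreated PIA and naive libraries, which pushes PIA away from naive on them. Where the 3-day arms stand relative to PIA was therefore partly fixed by that choice. Within replicates 1 to 4 the difference was -0.384 and within replicates 5 to 8 it was -0.527.

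The value in replicates 5 to 8 rested on the 2 shallow libraries. Without RTD-1 replicates 6 and 8 the difference of the lowered genes was 0.0604 within replicates 5 to 8 and -0.234 over all replicates. RTD-1 replicates 5 and 7, at -1.51 and -1.90, lay within the saline range of that set, -2.05 to -1.48. Without those 2 libraries 483 of the 1184 genes were lower after RTD-1 in replicates 5 to 8 (40.8%, against 41.5% of all genes tested under the same omission), where 1015 were lower with them. The median over all replicates was then -0.19 for the 1184 genes and 0.11 for all genes, and in replicates 5 to 8 the class lowered at least 16-fold had a median of -0.07. When reads were thinned by the library factor, down to the factor of the shallowest library, the difference in replicates 5 to 8 was -0.458. Without thinning, it was -0.408 among the 387 lowered genes with a mean log2 level of at least 5. Of these 387 genes, 91.5% were then lower after RTD-1 in that set, against 76.9% of all genes at that level. With thinned reads these shares were 89.7% and 73.6%. Thinning by the factor did not make reads in genes equal, since RTD-1 replicate 6 had the lowest share of its factor in genes, 27.2%. The part of depth in genes and of other properties of RTD-1 replicates 6 and 8 was not tested. Leaving out 1 library at a time gave, in replicates 1 to 4, values from -0.631 without saline replicate 3 to -0.202 without saline replicate 1 and -0.197 without saline replicate 2, and in replicates 5 to 8 values from -0.787 without RTD-1 replicate 5 to -0.295 without RTD-1 replicate 6. In replicates 1 to 4 only saline replicates 1 and 2, at -1.21 and -1.20, lay above the RTD-1 range of -2.43 to -1.78. Saline replicate 4, at -2.11, lay within that range and saline replicate 3, at -2.50, below it. Without saline replicates 1 and 2 the saline libraries left in that set were replicates 3 and 4, at -2.50 and -2.11. Their mean lies below the RTD-1 mean of replicates 1 to 4, -2.14. Under the deposited scaling the lower level after RTD-1 in replicates 1 to 4 thus rested on saline replicates 1 and 2.

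The mean level of the 2035 raised genes, less its naive mean, was 2.04, 1.62, 1.69, 1.73, 1.55, 0.96, 1.57 and 1.60 in RTD-1 replicates 1 to 8, against 1.45, 0.98, 1.48, 1.62, 1.63, 1.37, 1.74 and 1.42 in saline replicates 1 to 8. In replicates 1 to 4 all 4 RTD-1 libraries stood above the highest saline library, replicate 4, at 1.62, which RTD-1 replicate 2 exceeded by less than the rounding shown. With TMM factors they did not: saline replicate 4, at 1.60, lay above all 4 RTD-1 libraries, at 1.42 to 1.60. In replicates 5 to 8 the arms overlapped, apart from RTD-1 replicate 6, which was lowest. The means over all replicates were 1.60 ± 0.30 in the RTD-1 arm and 1.46 ± 0.23 in the saline arm (SD, n = 8 each), with a difference of 0.136 that is smaller than either SD. It was 0.389 within replicates 1 to 4 and -0.118 within replicates 5 to 8, and with TMM factors 0.212 and 0.0333. Leaving out 1 library at a time, the value over all replicates ran from 0.0664 without saline replicate 2 to 0.226 without RTD-1 replicate 6. Within replicates 5 to 8 it turned to 0.0361 without RTD-1 replicate 6. Every 3-day library but RTD-1 replicate 1 lay below the untreated PIA mean of 1.94 ± 0.173 (n = 4), a level partly set by the choice of the list from these PIA libraries.

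The genes that differed most in arthritis spread more widely than the full lists did among saline libraries, and also among RTD-1 and untreated PIA libraries. The 74 genes lowered at least 16-fold stood at -4.41, -5.06, -5.49 and -5.22 in RTD-1 replicates 1 to 4, against -2.96, -2.40, -5.22 and -4.36 in saline replicates 1 to 4, on the log2 scale relative to naive. Saline replicates 1 and 2 were the highest of the 16 libraries, and saline replicate 3 lay within the RTD-1 range. In replicates 5 to 8 they stood at -3.86, -5.59, -4.45 and -5.88 in RTD-1, against -3.95, -3.52, -4.64 and -4.33 in saline libraries. Over all replicates the means were -4.99 ± 0.694 after RTD-1 and -3.92 ± 0.923 after saline, and -4.87 ± 0.463 in untreated PIA libraries. The 81 genes raised at least 16-fold averaged 4.42 ± 0.329 after RTD-1 and 3.94 ± 0.613 after saline, and 4.82 ± 0.311 in untreated PIA libraries. Saline replicate 2, at 2.75, was the lowest of the 16 for these genes as well as the highest, at -2.40, for the genes lowered at least 16-fold.

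**Figure D5:**
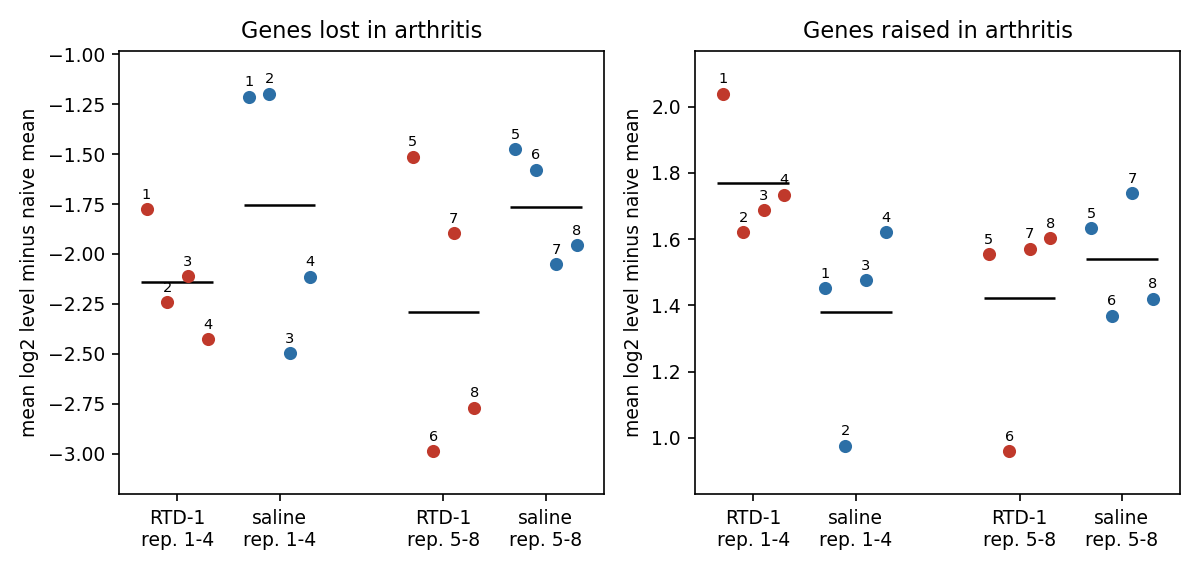
Mean log2 level, relative to the naive mean, of the 1184 genes lowered (left) and the 2035 genes raised (right) in untreated PIA, for each 3-day library. Red points are RTD-1, blue points saline, numbers are replicates and black lines means of 4. RTD-1 replicates 6 and 8 are lowest on the left, at -2.99 and -2.77, and saline replicates 1 and 2 highest, at -1.21 and -1.20.

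The same lists were read at the other days. After 1 day of treatment the median RTD-1 minus saline difference was 0.15 over the 1184 lowered genes, 0.18 over the 2035 raised genes and 0.16 over all genes. After 5 days it was 0.00, -0.05 and -0.04 for the same lists. The class lowered at least 16-fold had a median of 0.49 after 1 day and 0.21 after 5 days, opposite in sign to day 3. The class raised at least 16-fold had a median of 0.23 after 1 day and -0.17 after 5 days. Whether the 3-day medians differ from those of the other days was not tested.

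Saline replicate 4, the deepest 3-day library, lay apart from the other 15 on the second principal component of the 3-day libraries, which held 14.5% of the variance, at 97.8, with the others between -34.1 and 4.18. Leaving it out kept the pooled count at 1 called gene, with 353 higher and 770 lower at an unadjusted p under 0.05. In replicates 1 to 4 it left 0 called, with 1158 higher and 302 lower. The difference of the lowered genes over all replicates was then -0.506 and that of the raised genes 0.158. The median of the 74 genes lowered at least 16-fold became -1.66 in replicates 1 to 4, and that of the 81 raised at least 16-fold became 1.01.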

How the data were processed

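Whole synovial RNA was sequenced as single 75 nt reads from stranded total RNA libraries, per the labels' protocols. The submitters' processing notes list HISAT and DESeq. Build, annotation and aligner settings: not given in the sources used here. A single table was deposited by the authors, of log2 values for 58 libraries and 16880 rows, 1 of them without an identifier and left out (0.000384% to 0.0137% of reads). From the values, each is the log2 of whole reads times 1 factor per library, and a gene without reads is held at 0.9 read. Undoing this gave whole reads for 100% of values (relative tolerance 0.001). They were scaled to the median factor, 5.75 megareads, and called normalized reads.

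Groups and replicate numbers came from the titles. No label says which animal a library came from, so p-values cover only the spread between the libraries, which may be technical. Libraries of 1 arm differed by more than sampling noise (chi-square per degree of freedom at least 2.48). A gene was tested (13062 were) if 4 or more libraries had 10 or more normalized reads of it. limma 3.58.1 in R 4.3.3 was fitted to log2(normalized reads + 1), with 10 group means over all 58 libraries, or 14 means where the 3-day and 5-day arthritic groups were split at replicates 4 and 5, with trend and robust settings, two-sided, adjusted over 13062 genes and called under 0.05. Fold changes on this scale understate changes of sparse genes. The scripts were tested on simulated data.

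Named genes were those called over all replicates, and the 2 per direction with the lowest p in the mean of both sets' effects, given a mean log2 level of at least 5 and the same sign in both sets. Others are marked as named after their values were seen. The lists of pathway genes and cell markers need gene names and were not analysed here, and no sequence is printed. The comparison, its split and the lists were chosen with earlier results of these data known, and the classes by arthritis were added after the data were seen, so their direction is not independent of those results. Alternatives were TMM factors, quantile normalization, other pseudocounts (0.5 and 8), other filters (none, and 50 normalized reads), array weights, voom on recovered reads, only the 16 libraries, a replicate block, a set term, thinned reads, and libraries left out. Python 3.11.15 and matplotlib 3.10.9 drew the figures.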

Additional observations from a re-analysis of the deposited data

Results flagged for a closer look

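Values were compared with Dixon's 95% limit of 0.526 for groups of 8 in 34 groups, and 9 stood outside it. Chance gives about 1 in 20 for independent measures. These measures share libraries and genes, and the greater depth of saline replicate 4 was known beforehand. The 9 therefore carry no test against that rate. Saline replicate 4 had 5727282 reads in genes, against 1581196 to 2197717 in the other saline libraries. Its 10 most abundant genes held 25.6% of its reads, against 14.3% to 17.4% in the others. One gene, ENSRNOG00000047746, held 10.1% of them, against 0.000506% to 0.238% in the others, and in RTD-1 replicate 4 the same gene held 0.269%, against 0% to 0.0964% in the other RTD-1 libraries. On the second principal component saline replicate 4 lay at 97.8, against -6.31 to 4.18 in the other saline libraries.

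RTD-1 replicate 6, the shallowest library, lay at -34.1 on that component, against -14.7 to 2.66 in the other RTD-1 libraries. Its 10 most abundant genes held 19.1% of its reads, against 14.6% to 16.6%. Its mean level of the genes raised by arthritis was 0.96, against 1.55 to 2.04. ENSRNOG00000012424 had 71.7 normalized reads in RTD-1 replicate 5, against 13.3 to 40.0 in the other RTD-1 libraries.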

How the results depend on the processing

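The count over all replicates (1 called) was 2 with TMM factors, 7 with TMM factors without the deeper library, 3 with a set term, and 0 with a filter of 50, array weights, voom, only the 16 libraries, a pseudocount of 8, thinned reads, or without the 2 shallowest libraries. With voom 661 genes were higher and 280 lower at an unadjusted p under 0.05, and without the 2 shallowest 922 and 213. The count in replicates 1 to 4 (0) was 2 with TMM factors, with or without the deeper library, and 2 with quantile normalization. That in replicates 5 to 8 (1) was 8 with array weights and 0 with voom, only the 16 libraries, a pseudocount of 8, quantile normalization, or without the 2 shallowest. The count for the difference (0) was 1 with thinned reads. That for the mean of both sets (2) was 10 with TMM factors, with or without the deeper library, and 0 with array weights, voom, only the 16 libraries, a pseudocount of 8, thinned reads, or without the 2 shallowest.

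Leaving out each library in turn gave 0 to 11 over all replicates (11 without saline replicate 3, 5 without RTD-1 replicate 1, 4 without RTD-1 replicate 5, 3 without RTD-1 replicate 3 or saline replicate 7, and 0 without RTD-1 replicate 6 or 8 or saline replicate 2, 6 or 8). It gave 0 to 1 in replicates 1 to 4, 1 to 59 in replicates 5 to 8 (59 without RTD-1 replicate 5, 36 without RTD-1 replicate 7), 0 to 4 for the difference, and 0 to 21 for the mean of both sets (21 without saline replicate 3, 17 without RTD-1 replicate 5). The raised-gene difference in replicates 5 to 8 (-0.118) was 0.0333 with TMM factors, 0.0226 without the 2 shallowest, and -0.178 to 0.0361 with each library left out, and the lowered-gene difference there (-0.527) was 0.0604 without the 2 shallowest. The cause was not tested.

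Same-numbered libraries of the 2 arms were only weakly alike. Their deviations correlated at -0.0285 to 0.142, over 0.1 in 2 of 8 pairs, and 2 of 8 correlated best with their own number. Such values cannot show that the numbers mark no pairing, and no label says what they mark. With a replicate block the counts were 2 over all replicates, 4 in replicates 5 to 8, 4 for the difference and 7 for the mean of both sets. Intervals were widest for sparse genes, of which 8.60% at a mean log2 level under 3 had one within 2-fold.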
